A study of Mus musculus with 13 samples.

Results

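The 39 genes described here are keratins and other genes of epithelial identity, out of 26264 genes listed for each of 13 libraries from mouse right ventricle. They comprise 9 keratins and 30 genes of epithelial adhesion, tight junctions, desmosomes, transcription, splicing, surface proteolysis, apical membrane and keratinocyte cytoplasm. They were chosen by name, and selected on their high values in the libraries labelled knock-in 4, 5 and 6, so the levels in those 3 libraries are given as a description with no test.

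The study compared 6 wild-type libraries (1 to 6) with 7 libraries of mice labelled as Dsg2 F536C knock-in (1 to 7), all from polyadenylated RNA of the right ventricle. Dsg2 encodes desmoglein 2, a desmosomal cadherin of cardiomyocytes and epithelia, and the series asks how PPAR-γ signalling relates to fibrosis and arrhythmia in arrhythmogenic cardiomyopathy. The labels name no treatment for any library, although the design text speaks of a PPAR-γ inhibitor, and they do not give the zygosity of the knock-in, sex, age, litter, batch or strain. Whether the libraries are separate animals is not stated, and the p-values below therefore refer to the spread between libraries, which may be technical. No promoter or Cre enters the labels, and gene-level reads cannot show whether the F536C substitution is present. In TPM, a measure of transcript abundance that scales reads for transcript length and library depth, Dsg2 lay between 16.9 and 25.0 in wild type, between 11.8 and 15.2 in knock-in 1, 2, 3 and 7, and between 9.48 and 16.0 in knock-in 4, 5 and 6.

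Keratins are the intermediate filament proteins of epithelial cells, and each filament pairs a type I with a type II keratin. Simple epithelia such as ducts and mesothelium build filaments mainly from the type II keratins Krt7 and Krt8 with the type I keratins Krt18 and Krt19, whereas basal cells of stratified epithelia use Krt5 with Krt14, and Krt6a and Krt17 mark activated or appendage keratinocytes. Epithelial cells are joined by E-cadherin, claudins and desmosomes, and this state is maintained by transcription factors of the Grainyhead-like, Ovo-like and ETS families together with the splicing regulators Esrp1 and Esrp2. Cardiac muscle is not an epithelium, while the mesothelium that covers the heart (epicardium) carries simple keratins.

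The tables of knock-in 4, 5 and 6 held more fractional values than the remaining 10. The share of fractional read estimates was 10.2% to 10.7% in these 3 and 3.07% to 3.79% in the others, and where it came from was not tested. Of the 39 epithelial genes, 12 had a value that was not whole in at least 1 of these 3 libraries, and none had one in the other 10. The 12 were Krt5, Krt6a, Krt7, Krt8, Krt14, Krt15, Krt17, Krt19, Cldn3, Cldn4, Grhl2 and Esrp2. A gene without reads cannot have a fractional value, and Krt5 and Krt6a had no read in the other 10. The share of all genes by the same rule was not counted, so nothing is read from the 12. Totals were 14498336 to 29848597 reads per library, with 23098305 to 29848597 in the 3. Knock-in 1, 2, 3 and 7 carry the same label at 3.25% to 3.79%, so the difference lay within the knock-in group, and no wild-type library shared it. No pair within a group was alike to within counting noise, and wild type 3 and 6 came closest (chi-square over degrees of freedom, 7.19). The tissue label was met in all 13 libraries: the summed TPM of 8 cardiomyocyte genes, among them Myl2 (ventricular myosin light chain) and Tnnt2 (cardiac troponin T), was 56002 to 76531 in wild type, 40401 to 54531 in knock-in 1, 2, 3 and 7, and 32885 to 33327 in knock-in 4, 5 and 6. The lower sums in the 3 libraries went with the high epithelial values, and their part in any result below was not tested. In bulk tissue, fewer cells of a type and less RNA per cell cannot be told apart.

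The sequences upstream of these genes are shown because the genes stood high together in 3 libraries. RefSeq start sites on mouse build GRCm38.p6 were matched by symbol for 21 of the 39 genes, giving 26 windows of 250 bases before the start. Windows on 1 chromosome were left out beforehand, for the members and for all genes alike, so genes on it have none here. The letters CAGGTG, an E2 box on either strand (CACCTG when read on the other), were present in 17 of the 26 windows, 65.4%, belonging to 16 genes, against 17.2% of 32851 such windows of all genes. The AP-2 letters GCCNNNGGC were in 30.8% of the members' windows and 13.7% of all, and the GC box GGGCGG, which can overlap them, was in 13 of the 26 and in 32.7% of all. The TATA box TATAAA was in 3.85% and 12.4%, and the CCAAT box in 30.8% and 33.8%. The Grainyhead-like letters AACCGGTT were in none of the members' windows and in 0.116% of all, which says only that this exact string is not there. Median GC content was 59.2% in the members' windows and 52.4% over all, and these letters depend on base composition. The last 160 bases before the start are printed 5′ to 3′ on the gene's strand, with the E2 box and, for Krt7, also the AP-2 letters in capitals and other motifs unmarked. The genes are a basal keratin, a pair of simple keratins, the adhesion molecule Epcam, the transcription factor Elf5 (its first start site) and the trafficking gene Rab25.
Krt5, chr15:101712906-101713065, minus strand: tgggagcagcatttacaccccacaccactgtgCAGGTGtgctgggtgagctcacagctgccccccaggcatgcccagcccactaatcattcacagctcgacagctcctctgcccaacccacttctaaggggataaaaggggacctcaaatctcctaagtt
Krt8, chr15:102004343-102004502, minus strand: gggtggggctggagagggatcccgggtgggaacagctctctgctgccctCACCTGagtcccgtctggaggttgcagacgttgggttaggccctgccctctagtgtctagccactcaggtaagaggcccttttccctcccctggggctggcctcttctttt
Krt7, chr15:101412243-101412402, plus strand: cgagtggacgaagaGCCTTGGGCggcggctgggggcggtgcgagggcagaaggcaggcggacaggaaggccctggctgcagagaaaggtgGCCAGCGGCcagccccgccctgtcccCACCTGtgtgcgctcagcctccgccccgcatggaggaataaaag
Epcam, chr17:87635819-87635978, plus strand: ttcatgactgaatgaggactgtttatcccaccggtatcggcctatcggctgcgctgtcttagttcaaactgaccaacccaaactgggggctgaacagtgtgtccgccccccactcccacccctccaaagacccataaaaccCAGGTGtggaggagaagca
Elf5, chr2:103411938-103412097, plus strand: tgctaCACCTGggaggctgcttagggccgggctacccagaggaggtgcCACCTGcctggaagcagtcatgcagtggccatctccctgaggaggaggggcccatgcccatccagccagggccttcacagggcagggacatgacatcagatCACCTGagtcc
Rab25, chr3:88548280-88548439, minus strand: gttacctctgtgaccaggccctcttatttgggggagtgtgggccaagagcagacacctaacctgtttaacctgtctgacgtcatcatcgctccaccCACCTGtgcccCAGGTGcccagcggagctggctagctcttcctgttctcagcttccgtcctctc
Krt5, Krt8, Krt7 and Epcam have 1 E2 box in these 160 bases, Rab25 has 2 and Elf5 has 3 at its first start site. Every window printed holds an E2 box, so the printed ones do not stand for all. In the same 160 bases, none lay before Krt18, the other start site of Elf5 or the first start site of Cldn7. No window of Krt14, Cldn3, Grhl1, Prom2 or Spint1 held an E2 box. E2 boxes are known as binding letters of the repressors Zeb1, Zeb2, Snai1 and Snai2 and of basic helix-loop-helix factors, and a match is a description, not a site in use.

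Of the 39 genes, 35 had their lowest value among knock-in 4, 5 and 6 above the highest value of the other 10 libraries. Over all genes with at least 10 reads in at least 3 libraries, 21.7% met the same condition (3409 of 15711), and 37 of the 39 were eligible in that way. Since these values chose the genes, nothing is read from the difference between the shares. The summed TPM of the 39 genes was 43.22 to 60.98 in wild type, 52.44 to 82.89 in knock-in 1, 2, 3 and 7, and 4878, 4854 and 4131 in knock-in 4, 5 and 6. The 9 keratins made up 83.9%, 81.9% and 76.2% of that sum in knock-in 4, 5 and 6, and 23.7% to 51.4% elsewhere. The 4 genes outside the condition were the desmosomal cadherins Dsg3 and Dsc3, the basal-cell transcription factor Trp63 and the protease inhibitor Spint2. The gene nearest to the limit on the inside was Ocln, with a lowest value of 2.98 TPM in the 3 against a highest of 1.83 elsewhere, and on the outside Dsg3, at 0 in knock-in 4 and in all of the other 10, and Spint2, with 28.1 against 30.4. In 4 genes (Krt5, Krt6a, Elf5 and Dsg3) no read was counted in any of the other 10 libraries, and in 11, these 4 included, no such library held more than 3 reads.

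**Figure D1:**
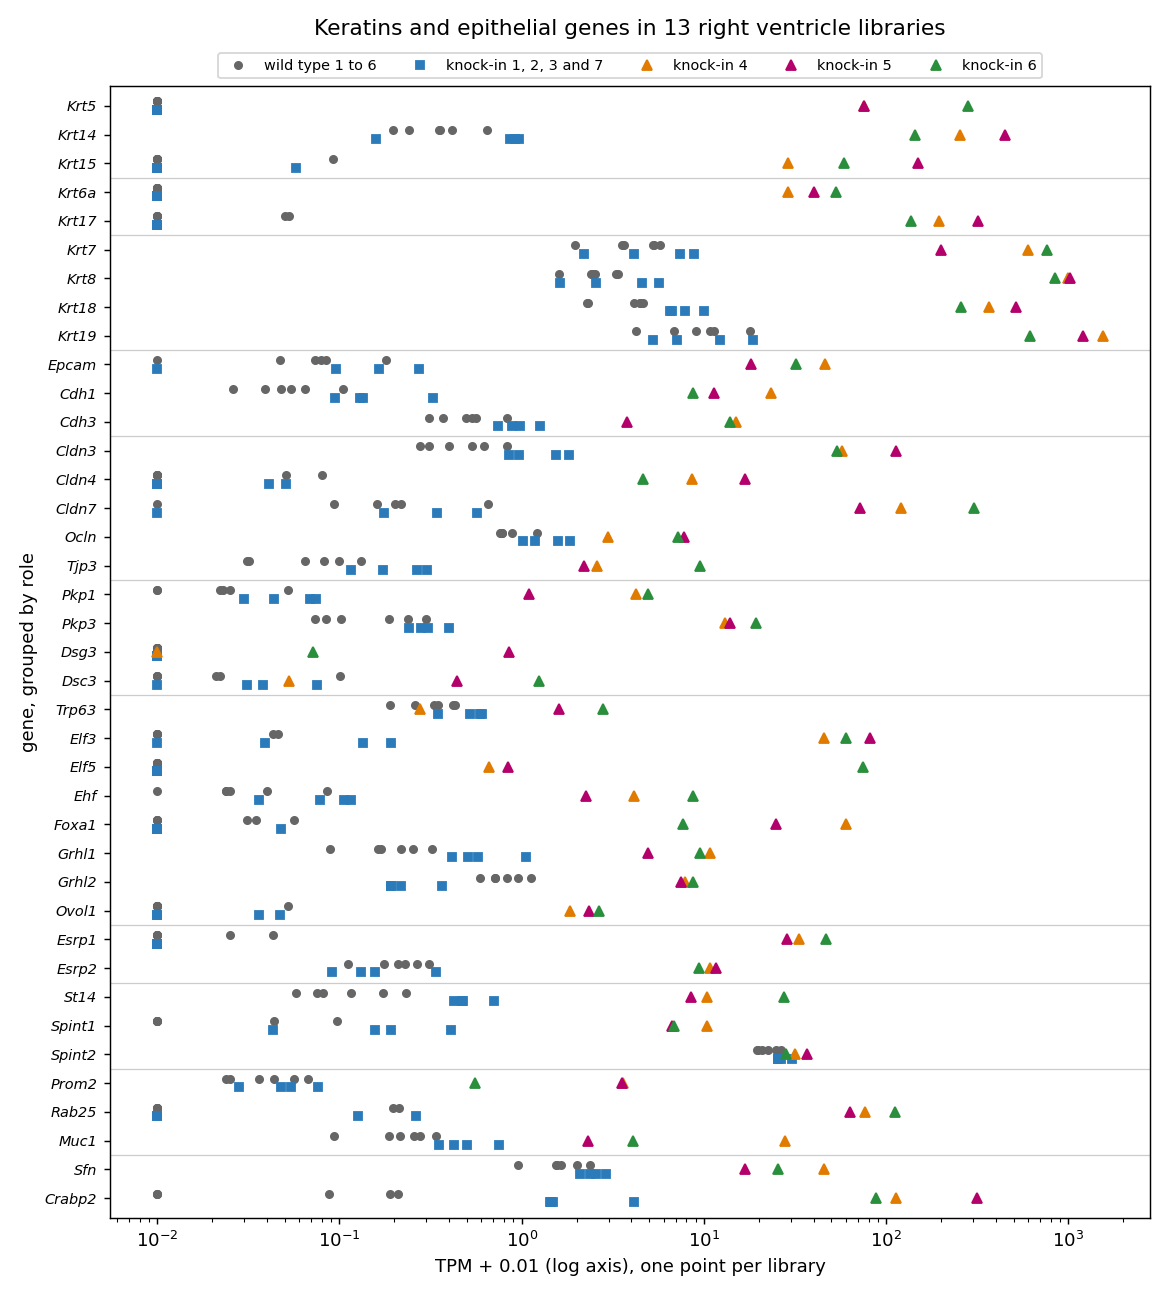
TPM of the 39 genes on a log axis (0.01 added), 1 point per library, with genes grouped by role. Knock-in 4, 5 and 6 (triangles) lie to the right of all other libraries for 35 genes, and overlap them for Dsg3, Dsc3, Trp63 and Spint2.

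Keratins of the basal layer were abundant in knock-in 4, 5 and 6. Krt5, the basal type II keratin, was listed at 0 reads in all 6 wild-type libraries and in knock-in 1, 2, 3 and 7, and at 75.9, 76.0 and 280 TPM in knock-in 4, 5 and 6 (2881, 2617 and 12144 reads). Against a limit of 3 reads in the library where that limit is highest (0.133 TPM), the lowest of the 3 was at least 572-fold higher. Krt14, its type I partner, was low but present elsewhere, at 0.186, 0.343 and 0.637 TPM (lowest, median and highest) in wild type and at 0.855, 0.148, 0.959 and 0.905 in knock-in 1, 2, 3 and 7, and stood at 254, 448 and 143 in knock-in 4, 5 and 6. Knock-in 6 thus had the most Krt5 and the least Krt14 of the 3. Krt15, a keratin of basal and follicle stem cells, was at 28.9, 150 and 58.4 TPM in knock-in 4, 5 and 6, with at most 0.0820 elsewhere, in wild type 6, and a further 0.0480 in knock-in 2.

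Keratins of activated and appendage keratinocytes were present in the same libraries. Krt6a was at 0 in the other 10 libraries and at 28.8, 40.4 and 53.0 TPM in knock-in 4, 5 and 6, at least 222-fold above the limit of 3 reads. Krt17 was at 194, 320 and 137 TPM in the 3, and at 1 read each in wild type 4 and 5 (0.0400 and 0.0430 TPM) with none in the other 8. Krt5 and Krt6a, and Krt14 and Krt17, are close in sequence to each other and to further keratins, so reads may have been shared among them in ways the deposited values do not show.

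The simple keratins Krt8 and Krt19 were among the 3 most abundant of the 39 genes in each of knock-in 4, 5 and 6. Krt19 was at 1551, 1206 and 614 TPM there, at 4.22, 9.93 and 17.8 (lowest, median and highest) in wild type, and at 12.3, 5.26, 7.13 and 18.5 in knock-in 1, 2, 3 and 7. Krt8 was at 993, 1016 and 842 TPM in the 3, at 1.60, 2.49 and 3.38 in wild type, and at 4.56, 1.62, 2.54 and 5.66 in knock-in 1, 2, 3 and 7. Krt7, found in ductal and glandular epithelia, was at 600, 201 and 762 TPM in the 3, at 1.94, 4.43 and 5.75 in wild type, and at 7.39, 2.18, 4.10 and 8.79 in knock-in 1, 2, 3 and 7. Wild type overlapped knock-in 1, 2, 3 and 7 for each of these. Krt18, the partner of Krt8, was at 365, 516 and 258 TPM in knock-in 4, 5 and 6, against 2.26 to 9.98 in the other 10. The length the authors' tables used for Krt19 was 1382 bases in each of the 3 and 1025 to 1228 bases in the other 10, which enters its TPM.

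The balance of keratins differed among the 3 libraries. Keratins of stratified epithelia (Krt5, Krt6a, Krt14, Krt15 and Krt17) made up 14.2%, 26.0% and 21.3% of the TPM of the 9 keratins in knock-in 4, 5 and 6, and 1.18% to 4.51% elsewhere, so simple keratins were the larger share in every library. The ratio of type I to type II keratins was 1.41 and 1.98 in knock-in 4 and 5 and 0.625 in knock-in 6, and 1.65 to 3.19 in the other 10. Krt5 over Krt14 was 0.299, 0.170 and 1.96, Krt8 over Krt18 was 2.72, 1.97 and 3.27, and Krt7 over Krt19 was 0.387, 0.167 and 1.24. In all 3 pairs knock-in 6 had the highest ratio of type II to type I and knock-in 5 the lowest. Krt6a over Krt17 followed the same order, at 0.148, 0.126 and 0.388. These ratios come from 1 library each and have no replicate check.

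**Figure D2:**
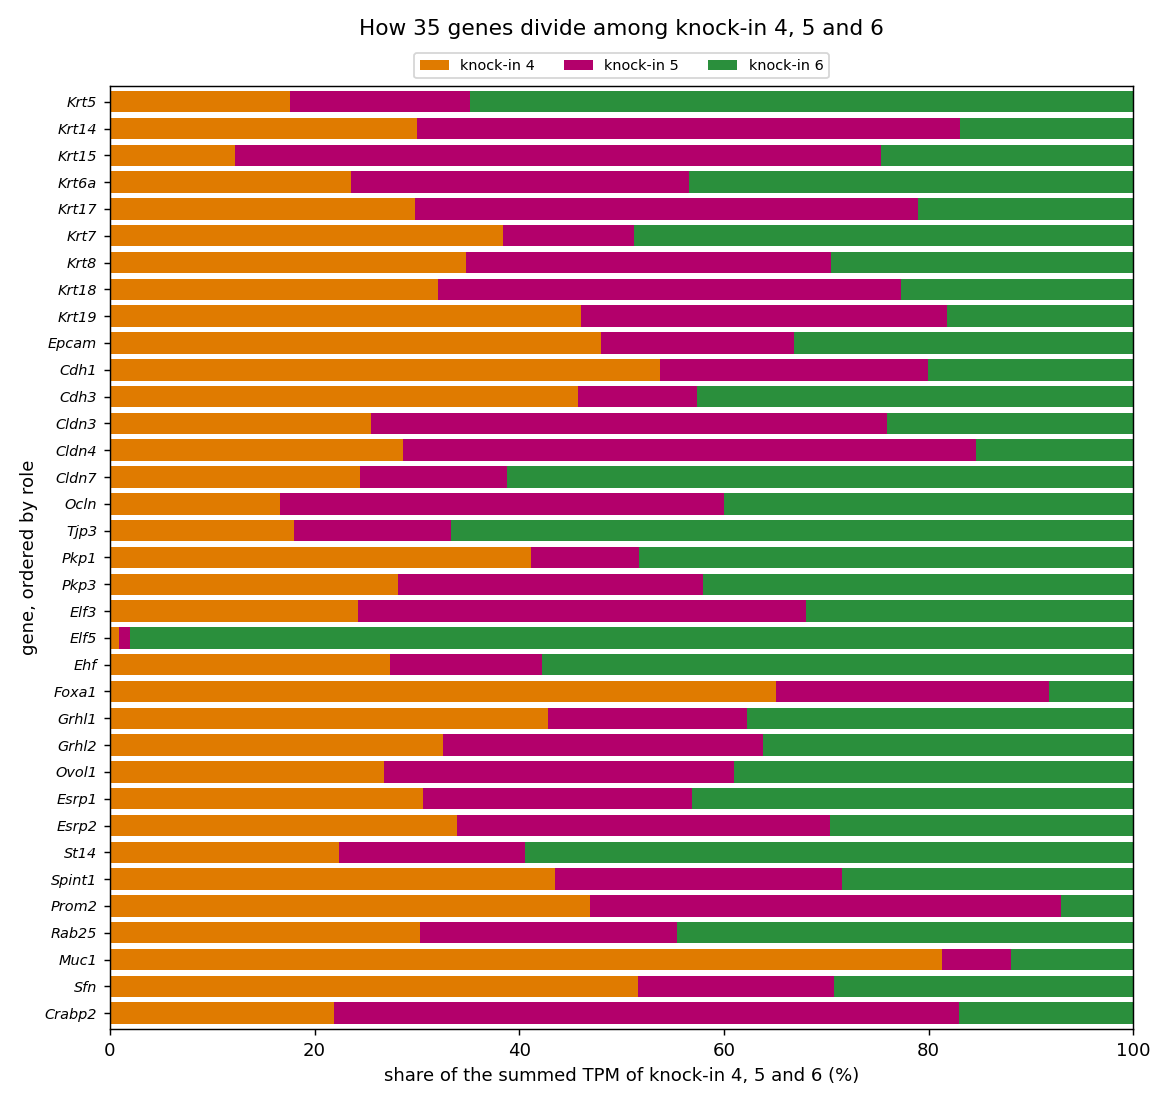
Share of each gene's summed TPM over knock-in 4, 5 and 6 that lies in each of the 3 libraries (bars add to 100%), for the 35 genes above all other libraries. Elf5 lies almost wholly in knock-in 6, Muc1 and Foxa1 mostly in knock-in 4, and Grhl2, Krt8 and Esrp2 divide nearly evenly.

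Over the 35 genes, the highest of the 3 libraries was knock-in 4 for 10, knock-in 5 for 11 and knock-in 6 for 14. The ratio of the highest to the lowest of the 3 had a median of 2.68, with 10 genes under 2 and 5 above 5. The most even genes were Grhl2 (1.16), Krt8 (1.21) and Esrp2 (1.24), and the least even were Elf5 (115), Muc1 (12.1), Foxa1 (7.91), Prom2 (6.63) and Krt15 (5.18).

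Adhesion molecules of epithelia were highest in knock-in 4. Epcam, an epithelial cell adhesion molecule, was at 46.4, 18.2 and 32.1 TPM in knock-in 4, 5 and 6. Its values elsewhere were 0.00, 0.0660 and 0.170 in wild type (lowest, median and highest) and 0.00, 0.0860, 0.264 and 0.154 in knock-in 1, 2, 3 and 7. Cdh1, which encodes E-cadherin of adherens junctions, was at 23.4, 11.4 and 8.75 TPM in the 3, at 0.0160, 0.0410 and 0.0950 in wild type, and at 0.125, 0.119, 0.0840 and 0.316 in knock-in 1, 2, 3 and 7. Cdh3, which encodes the basal-layer P-cadherin, was at 14.9, 3.79 and 13.9 TPM, with 0.301, 0.502 and 0.818 in wild type and 0.963, 0.733, 0.875 and 1.25 in knock-in 1, 2, 3 and 7. The 3 libraries lay above all others for each of the 3 adhesion genes, by 3.04-fold for Cdh3 and 69.1-fold for Epcam between the lowest of the 3 and the highest of the rest.

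Tight-junction genes included 3 claudins. Cldn7 was at 121, 71.5 and 303 TPM in knock-in 4, 5 and 6, at 0.00, 0.171 and 0.640 in wild type and at 0.165, 0.00, 0.331 and 0.559 in knock-in 1, 2, 3 and 7. Cldn4 was at 8.58, 16.8 and 4.60 TPM, against at most 2 reads (0.0700 TPM) in any wild-type library and 0.0410, 0.00, 0.00 and 0.0310 in knock-in 1, 2, 3 and 7. Cldn3 was at 57.3, 113 and 53.9 TPM, and its values elsewhere are given with the tests below. Cldn7 was thus highest in knock-in 6, while Cldn3 and Cldn4 were highest in knock-in 5. Ocln, which encodes occludin of epithelial and endothelial junctions, was at 2.98, 7.79 and 7.18 TPM against 0.747 to 1.83, and Tjp3, a junctional scaffold, at 2.57, 2.18 and 9.50 against 0.0210 to 0.291.

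Desmosomal genes of stratified epithelia were split. The plakophilin Pkp3 was at 13, 13.8 and 19.4 TPM in knock-in 4, 5 and 6, at 0.0630, 0.134 and 0.290 in wild type and at 0.295, 0.271, 0.231 and 0.387 in knock-in 1, 2, 3 and 7. Pkp1, the plakophilin of suprabasal cells, was at 4.22, 1.08 and 4.95 TPM, at 0.00, 0.0125 and 0.0420 in wild type and at 0.0590, 0.0640, 0.0200 and 0.0340 in knock-in 1, 2, 3 and 7. The cadherins of the epidermal desmosome were low in all 13 libraries. Dsc3 was at 0.0430, 0.429 and 1.23 TPM in knock-in 4, 5 and 6, at 0.00, 0.00550 and 0.0910 in wild type and at 0.0650, 0.0280, 0.00 and 0.0210 in knock-in 1, 2, 3 and 7, so knock-in 4 lay within the range of the others. Dsg3 had 0, 55 and 5 reads in the 3 (0.00, 0.840 and 0.0620 TPM) and none in the other 10.

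The transcription factors held both the most even and the least even of the 35 genes, Grhl2 and Elf5. Elf3, an ETS factor of epithelia, was at 45.4, 81.9 and 59.9 TPM in knock-in 4, 5 and 6, at 0.00, 0.00 and 0.0360 in wild type and at 0.183, 0.125, 0.00 and 0.0290 in knock-in 1, 2, 3 and 7, a gap of 248-fold between the lowest of the 3 and the highest of the rest. Foxa1, a forkhead factor of glandular and endoderm-derived epithelia, was at 60.4, 24.7 and 7.64 TPM, with at most 2 reads (0.0460 TPM) in wild type and 0.00, 0.00, 0.00 and 0.0380 TPM in knock-in 1, 2, 3 and 7. Grhl1 and Grhl2, the Grainyhead-like factors, were at 10.8, 4.92 and 9.52 and at 7.84, 7.52 and 8.72 TPM. Elf5, an ETS factor known from mammary and other glandular epithelia, had 24, 28 and 3127 reads (0.650, 0.827 and 74.7 TPM) and no read in the other 10 libraries, so its level in knock-in 4 was at least 4.81-fold above the limit of 3 reads. Ehf was at 4.12, 2.24 and 8.69 TPM against at most 0.105, and Ovol1 at 1.82, 2.32 and 2.65 against at most 0.0420.

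Trp63, which encodes p63, the factor of basal cells, did not share this gap. It was at 0.266, 1.60 and 2.80 TPM in knock-in 4, 5 and 6, at 0.179, 0.330 and 0.420 in wild type and at 0.594, 0.508, 0.582 and 0.339 in knock-in 1, 2, 3 and 7. Knock-in 4 therefore lay within the other libraries while its Krt14 was at 254 TPM. The ratio of Krt14 to Trp63 in TPM was 954, 280 and 51.2 in knock-in 4, 5 and 6, where Trp63 had 19, 81 and 192 reads. The length used for Trp63 was 4213, 3275 and 3639 bases in these 3 and 2193 to 3811 in the other libraries, which enters its TPM.

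Each splicing regulator varied by less than 2-fold among the 3 libraries. Esrp1 was at 33.2, 28.5 and 46.8 TPM in knock-in 4, 5 and 6, at 0.00, 0.00 and 0.0330 in wild type (1 and 2 reads in wild type 1 and 2) and at 0.00 in knock-in 1, 2, 3 and 7. Esrp2 was at 10.8, 11.6 and 9.41 TPM, at 0.102, 0.209 and 0.301 in wild type and at 0.0810, 0.327, 0.146 and 0.122 in knock-in 1, 2, 3 and 7. Exons of Esrp2 overlap exons of Nfatc3 on the opposite strand, a gene expressed at up to 12.6 TPM outside the 3 libraries and at 12.0 to 17.3 in them, so its reads could be shared.

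Surface proteolysis was represented by matriptase and its inhibitors. St14, which encodes matriptase, a serine protease of epithelial surfaces, was at 10.4, 8.46 and 27.6 TPM in knock-in 4, 5 and 6. Spint1, a matriptase inhibitor, was at 10.4, 6.69 and 6.81 TPM, at 0.00, 0.00 and 0.0870 in wild type and at 0.0330, 0.146, 0.181 and 0.401 in knock-in 1, 2, 3 and 7. Spint2, a broader inhibitor, was expressed in all libraries at 31.7, 36.7 and 28.1 TPM in the 3, 19.5, 21.6 and 26.5 in wild type and 30.4, 25.4, 26.5 and 25.5 in knock-in 1, 2, 3 and 7, with knock-in 6 below knock-in 1.

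Apical and trafficking genes followed different libraries. Rab25, a GTPase of apical recycling, was at 76.3, 63.2 and 112 TPM in knock-in 4, 5 and 6, at 0.00, 0.00 and 0.202 in wild type and at 0.00, 0.254, 0.00 and 0.117 in knock-in 1, 2, 3 and 7. Muc1, a membrane mucin of glandular surfaces, was at 27.8, 2.29 and 4.08 TPM, at 0.0830, 0.226 and 0.328 in wild type and at 0.416, 0.490, 0.342 and 0.736 in knock-in 1, 2, 3 and 7. Prom2, a protein of membrane protrusions, was at 3.60, 3.53 and 0.543 TPM, at 0.0140, 0.0300 and 0.0570 in wild type and at 0.0660, 0.0180, 0.0440 and 0.0380 in knock-in 1, 2, 3 and 7. Muc1 was highest in knock-in 4 and Prom2 was lowest in knock-in 6, yet each stayed above all of the other 10 libraries.

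Of the cytoplasmic genes of keratinocytes, Sfn encodes 14-3-3 sigma and Crabp2 a carrier of retinoic acid. Sfn was at 45.3, 16.8 and 25.6 TPM in knock-in 4, 5 and 6, at 0.946, 1.59 and 2.36 in wild type and at 2.35, 2.08, 2.89 and 2.54 in knock-in 1, 2, 3 and 7. Crabp2 was at 113, 316 and 88.1 TPM in the 3.

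Other epithelial genes that had not been used to choose the 39 were examined to see which epithelial layers and types they point to. These lists were drawn up with earlier results of these data known, and their values are descriptions. A gene near 0 elsewhere had enough reads only through knock-in 4, 5 and 6, and then had to lie above. Nothing is therefore read from the shares of these lists. Of 20 further genes of epithelial polarity and junctions, 16 lay in knock-in 4, 5 and 6 above all other libraries (16 of the 19 with enough reads, where 21.7% of all genes did). The most abundant were not among them: Perp, a desmosomal membrane protein expressed in all libraries, was at 434, 107 and 131 TPM against 81.4 to 150 elsewhere, and Dsp, desmoplakin of cardiac and epithelial desmosomes, at 95.6, 113 and 141 against 63.5 to 142. Among those above, named after their values were seen, Ap1m2, an adaptor of basolateral sorting, was at 43.0, 26.3 and 72.2 TPM and at most 0.0330 elsewhere, and the AP-2 factor Tfap2a at 26.4, 30.7 and 42.2 against at most 0.167. Of 6 hemidesmosome and anchor genes, 2 lay above all others, or 1 of the 5 with enough reads, against the 21.7% of all genes. Itgb4, the integrin of hemidesmosomes, was at 66.1, 13.1 and 56.4 TPM against at most 3.94, while its partner Itga6 was at 30.3, 27.4 and 60.6 against at most 28.1.

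Of 15 genes of suprabasal and cornified layers, 11 were at or under 1 TPM in all 3 libraries, and a further 2 of the 17 sought, Loricrin and Flg, were not matched. The summed TPM was 59.5, 14.6 and 7.78 in knock-in 4, 5 and 6 against 4.17 to 8.85 in wild type and 5.35 to 10.6 in knock-in 1, 2, 3 and 7. Calml3, a calmodulin-like protein of keratinocytes, named after its values were seen, was at 35.0, 0.390 and 0.116 TPM against at most 0.178. Krt10 and Sbsn had the highest medians over the 3: Krt10, the suprabasal type I keratin, was at 21.1, 8.61 and 3.81 TPM against 1.83 to 3.93 elsewhere, and Sbsn at 2.59, 2.50 and 2.49 against 1.64 to 5.74. Of 7 genes of mucosal stratified epithelium, 4 lay above all others, which were all 4 with enough reads, where 21.7% of all genes did. These 4 (Krt13, Krt6b, Krt16 and Krt76) were at most 0.102 TPM elsewhere. They had enough reads only through knock-in 4, 5 and 6, so that count was fixed in advance. Krt16 was at 12.9, 51.9 and 53.1 TPM with 0 elsewhere and Krt6b at 12.8, 12.6 and 7.68 against at most 0.0280, both close in sequence to keratins above, and Sprr3 was at 0 reads in the 3. Lower in the 3 were Krt13, at 1.11, 2.17 and 1.18 TPM, and Krt4, at 0.138, 0.486 and 0.0720, both named after their values were seen. The summed TPM of 12 hair follicle genes was 9.07, 11.9 and 5.44, against 0.625 to 1.44 in wild type and 0.640 to 1.15 in knock-in 1, 2, 3 and 7, with 9 of the 12 at or under 1 TPM in the 3. The most abundant by median were Msx2, at 5.20, 7.87 and 1.56 TPM against at most 0.717, and Dlx3, at 2.12, 0.295 and 1.46 against at most 0.145. Krt85, named after its values were seen, was at 0.487, 2.01 and 0.330 TPM with 0 elsewhere.

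**Figure D3:**
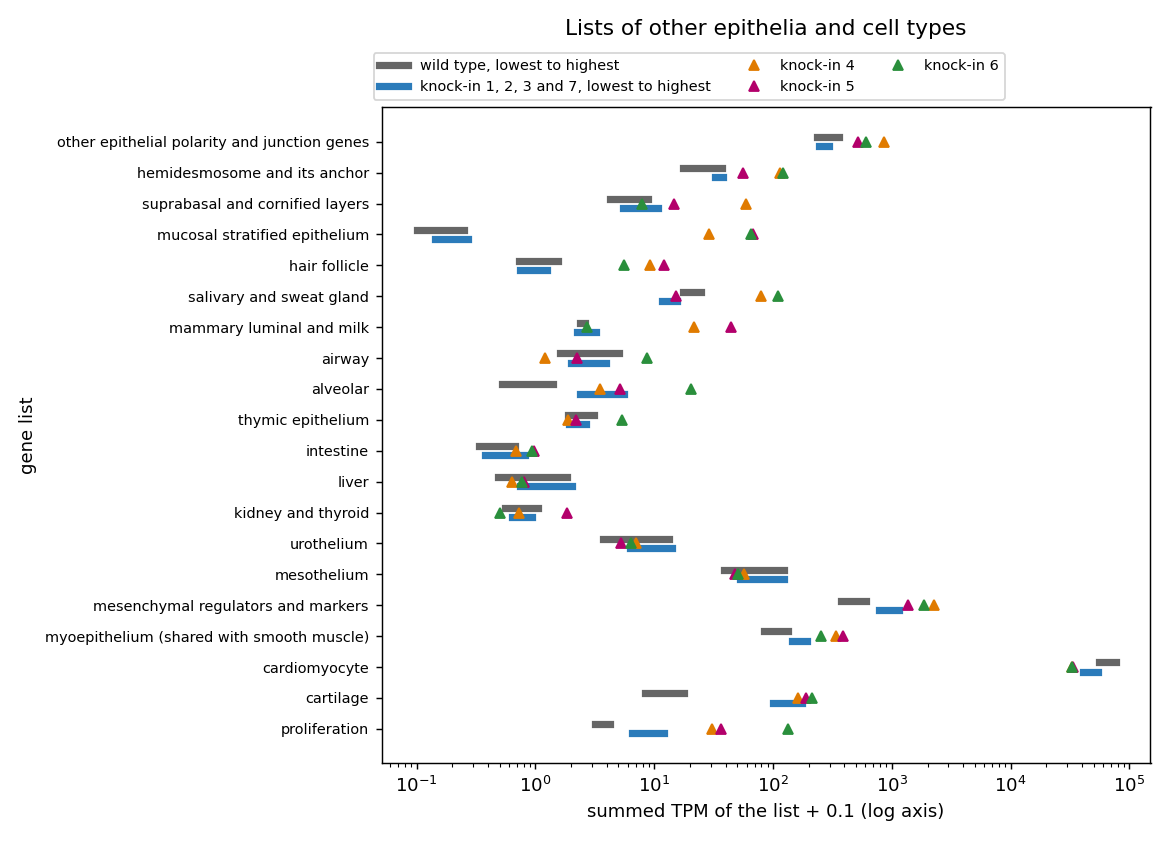
Summed TPM of 20 gene lists of other epithelia and cell types on a log axis (0.1 added), with bars from the lowest to the highest library of wild type and of knock-in 1, 2, 3 and 7 and a triangle for each of knock-in 4, 5 and 6. The epithelial junction, hemidesmosome, mucosal, hair follicle, mesenchymal, myoepithelial and proliferation lists lie to the right in all 3. By median over the 3, the most abundant genes were Krt16 and Krt6b in the mucosal list and Msx2 and Dlx3 in the hair follicle list. A high sum therefore does not name the epithelium. The mesothelial, liver and urothelial lists lie within the range of wild type, and the cardiomyocyte list lies below it.

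Genes of glands marked libraries unequally. Of 8 salivary and sweat gland genes, Aqp5, the water channel of secretory acini, was at 57.2, 1.45 and 93.7 TPM in knock-in 4, 5 and 6 and at most 1.36 elsewhere, Kcnn4 at 13.8, 5.45 and 10.2 against at most 3.31, and Amy1, an amylase named after its values were seen, lower at 8.81, 8.18 and 6.90 against 9.44 to 24.2. Of the same list Smgc, Bpifa2, Dcpp1 and Pip were at 0 reads in the 3. Of 10 mammary genes, Areg, a growth factor of luminal cells, was at 16.7, 2.91 and 0.391 TPM against at most 0.219, Prlr at 2.91, 4.85 and 0.864 against at most 1.87, and the milk protein genes Csn1s1, Csn2, Wap and Glycam1 were at 0 reads in the 3. Esr1, the estrogen receptor, named after its values were seen, was at 1.61, 35.7 and 0.797 TPM against at most 1.73, so knock-in 5 stood alone. Of 5 genes that myoepithelium shares with smooth muscle, 2 lay above all others (21.7% of all genes did), and Cnn1, Myh11 and Oxtr did not. Acta2, smooth muscle actin that vessels and myofibroblasts of the heart also express, was at 306, 315 and 215 TPM against 61.5 to 137, and Mylk at 13.2, 16.0 and 13.4 against at most 12.2.

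Genes of internal epithelia were mostly near 0. At or under 1 TPM in all 3 libraries were 8 of 8 intestinal genes, 5 of 5 liver genes, 4 of 5 kidney and thyroid genes, 7 of 10 alveolar genes, 5 of 8 airway genes, 4 of 6 thymic epithelial genes and 3 of 4 urothelial genes. At 0 reads in the 3 were Cdx2, Fabp2 and Tff3 of intestine, Hnf4a of liver, Umod of kidney, Sftpc and Nkx2-1 of lung, Scgb3a2 and Tmem212 of airway and Psmb11 of thymus. Genes above that level in knock-in 6 included Foxj1 and Slc34a2: Foxj1, a factor of ciliated cells, was at 0.0910, 0.452 and 7.06 TPM against at most 0.167 elsewhere, and Slc34a2, a phosphate transporter of several secretory epithelia that was named after its values were seen, at 0.00, 0.624 and 16.9 against at most 0.0130. Of 6 proliferation genes, 5 lay above all others in the 3 libraries (21.7% of all genes did), with Top2a at 16.9, 22.2 and 94.1 TPM against at most 3.65, while Mki67, named after its values were seen, was at 1.36, 1.70 and 1.88 against at most 3.31.

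Of 9 genes of the mesenchymal state, 3 lay above all others (21.7% of all genes did): Vim, Fn1 and Twist1. Vim, vimentin of fibroblasts and endothelium, was at 1132, 1125 and 1223 TPM in knock-in 4, 5 and 6 against 254 to 940 elsewhere, and Fn1, fibronectin, at 1022, 111 and 506 against 9.44 to 66.6. Twist1, a mesenchymal factor, was at 17.1, 16.2 and 15.9 against at most 14.9, and Cdh2, N-cadherin of cardiomyocytes and mesenchyme, was lower at 38.5, 44.2 and 47.1 against 56.7 to 96.1, both named after their values were seen. The repressors Zeb1 and Zeb2 were at 20.4, 23.5 and 21.1 and at 20.9, 19.7 and 23.4 TPM, within the 14.5 to 27.4 and 8.61 to 24.1 of the other 10. Snai1 was at 10.6, 13.8 and 7.71 against 2.16 to 13.3 and Snai2 at 8.20, 8.32 and 13.4 against 2.69 to 8.22, so each overlapped the others.

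The comparison that did not choose the genes was between knock-in 1, 2, 3 and 7 and the 6 wild-type libraries. Of the 39 genes, 17 had enough reads to be tested and 22 did not, and a gene that passed only through the group where it is high had to differ, so the 17 do not stand for all. In 7 of the 17, wild type alone did not hold the 4 libraries with enough reads that the filter needs: Krt14, Cldn3, Pkp3, Grhl1, St14, Muc1 and Crabp2. In that comparison 4 genes rose and 1 fell (adjusted p under 0.05, edgeR quasi-likelihood test), or 23.5% and 5.88% of the 17, where over all 14518 tested genes 22.3% rose and 21.3% fell. All 4 higher genes were among those 7, so nothing is read from the members' share. Over all genes that split was 3241 higher and 3099 lower, and 6049 and 1528 when scaled by library totals. The median log2 fold change was 0.52 over the 17 and 0.02 over all genes tested. The 17 include those 7 genes, with changes of 0.53 to 4.32, so nothing is read from the difference between the medians. Scaling by library totals moved the median of all genes to 0.26, and log2 differences below are relative to the first scaling.

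Crabp2 had a log2 fold change of 4.32 and was tested only because of its reads in knock-in, since no wild-type library reached the filter. It was at 1.44, 1.47, 1.42 and 4.11 TPM in knock-in 1, 2, 3 and 7, and at 0.00, 0.0390 and 0.200 in wild type (lowest, median and highest), that is 11 to 56 reads against 0 to 2. The groups did not overlap, and knock-in 7 was highest. The SE of that change was 0.63 and the adjusted p 0.000146 (edgeR quasi-likelihood test), from means of 0.0762 ± 0.0931 and 2.11 ± 1.33 TPM (SD, n = 6 and 4). Without knock-in 7 it was 3.77 (adjusted p = 0.000933, edgeR quasi-likelihood test).

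St14 and Grhl1 also rose without overlap. St14 was at 0.465, 0.416, 0.462 and 0.698 TPM in knock-in 1, 2, 3 and 7, and at 0.0480, 0.0880 and 0.222 in wild type, and edgeR's quasi-likelihood test gave a log2 fold change of 1.77 with an SE of 0.35 (adjusted p = 0.00110). Grhl1 was at 0.407, 1.04, 0.569 and 0.495 TPM, and at 0.0790, 0.184 and 0.311 in wild type, which gave 1.42 with an SE of 0.38 by the same edgeR test (adjusted p = 0.00786). Every one of the 4 knock-in libraries lay above all 6 wild-type libraries for both genes. They rest on 3 to 53 reads per library. With no filter on low counts, the adjusted p by edgeR was 0.000107 for Crabp2, 0.00125 for St14 and 0.00841 for Grhl1.

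Cldn3 rose by the least. It was at 1.80, 0.962, 0.839 and 1.54 TPM in knock-in 1, 2, 3 and 7, and at 0.265, 0.456 and 0.821 in wild type. Knock-in 3 was close to wild type 4 in TPM, and below it in reads per library total (10 of 14498336 against 16 of 20416334). The difference on the log2 scale was 0.98 with an SE of 0.37 by edgeR (adjusted p = 0.0434). The call was lost with DESeq2 (adjusted p = 0.0540), without a filter on low counts (adjusted p = 0.0656) and without any 1 of wild type 1, 2, 3 and 6 or knock-in 1 and 7 (adjusted p 0.0592 to 0.158, edgeR quasi-likelihood test).

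Grhl2 fell while its relative Grhl1 rose. Grhl2 was at 0.181, 0.182, 0.354 and 0.207 TPM in knock-in 1, 2, 3 and 7, and at 0.577, 0.765 and 1.12 in wild type, or 12 to 19 reads against 44 to 78. All 4 knock-in libraries lay below all 6 wild-type libraries, and by edgeR the log2 fold change was -2.23 with an SE of 0.28 (adjusted p = 5.61e-05). Its level in knock-in 4, 5 and 6 was above both groups, at 7.52 to 8.72 TPM. An exon of Grhl2 overlaps an exon of Gm16136 on the opposite strand, which was listed at up to 0.315 TPM in the 10 libraries and at 0.620 to 1.42 in the 3, so reads of the pair could have been shared if counting ignored strand.

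**Figure D4:**
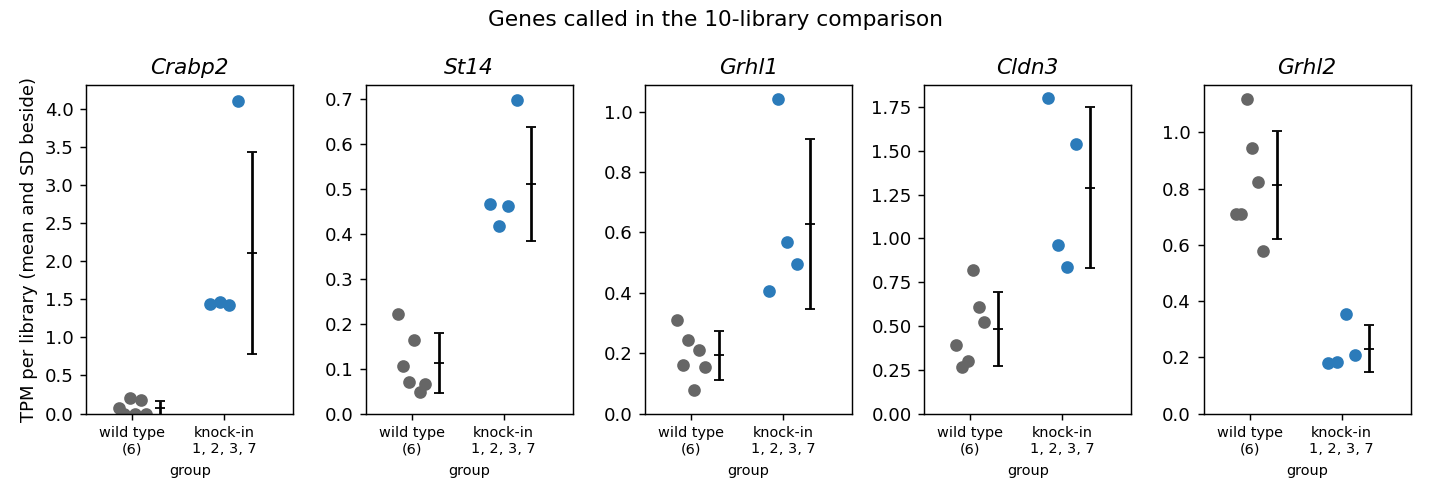
TPM of the 5 genes with an adjusted p under 0.05 in the 10-library comparison, 1 point per library, with the mean and SD beside each group. Crabp2, St14, Grhl1 and Cldn3 lie higher in knock-in 1, 2, 3 and 7 and Grhl2 lies lower. In TPM the groups do not overlap for any of the 5, nor for Krt18 and Muc1, which were not called. The share of all genes without overlap was not counted. Nothing is therefore read from the lack of overlap, here or where it is named for single genes.

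The other 12 tested genes did not pass. Krt18 came nearest, at 9.98, 6.67, 6.54 and 7.82 TPM in knock-in 1, 2, 3 and 7 and 2.26, 4.26 and 4.62 in wild type, with a log2 difference of 0.67 and an SE of 0.26 by edgeR (adjusted p = 0.0513). It passed in 6 of 17 alternatives. These were library totals, DESeq2 (adjusted p = 0.0425), limma on log2(TPM + 1), all 13 libraries, and edgeR without wild type 5 (adjusted p = 0.0432) or wild type 6 (adjusted p = 0.0463). The fit with all 13 libraries holds the libraries that chose the genes, so nothing is read from that pass. The log2 differences of the other simple keratins were 0.05 ± 0.32 for Krt8, -0.00 ± 0.40 for Krt7 and -0.33 ± 0.49 for Krt19 (SE), each smaller than 1 SE. Krt14 differed by 0.65 ± 0.45 and Muc1 by 0.80 ± 0.38, and the rest (Cdh3, Ocln, Pkp3, Trp63, Spint2 and Sfn) by -0.13 to 0.53, with Krt7, Trp63 and Spint2 turning from negative to positive under library totals. A p that misses the threshold does not show that these levels were alike.

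With all 13 libraries, 18 of the 39 genes were tested, 15 were higher in knock-in and 0 lower, where 23.6% of all genes were higher and 21.0% lower. Nothing is read from that count, because the comparison holds the 3 libraries that chose the genes.

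Simple keratins varied together with genes of mesothelium among the 10 libraries, a relation chosen after the values were seen. The p-values below do not cover that choice, and those over 10 libraries treat wild type and knock-in as interchangeable. The summed TPM of 8 mesothelial genes, among them Gpm6a and Upk3b, was 38.9 to 124 in wild type and 52.9 to 124 in knock-in 1, 2, 3 and 7. Across the 10 libraries Pearson's r with this sum was 0.93 for Krt19 (Spearman's rho 0.88, permutation p = 4.00e-05 for r and 0.00170 for rho, adjusted 0.000160 and 0.00340 over 4 relations, two-sided). It was 0.85 for Krt8 (rho 0.88, permutation p = 0.00204 and 0.00168, adjusted 0.00408 and 0.00340) and 0.84 for Krt7 (rho 0.79, permutation p = 0.00338 and 0.00878, adjusted 0.00451 and 0.0117). For Krt18 it was 0.65 (rho 0.64, permutation p = 0.0493 and 0.0558, adjusted 0.0493 and 0.0558). Without wild type 4 and knock-in 7, the libraries farthest from the median, r was 0.84, 0.89, 0.87 and 0.81 for Krt19, Krt8, Krt7 and Krt18. Within wild type alone r was 0.97, 0.76, 0.68 and 0.83 over 6 libraries, with adjusted exact permutation p of 0.0667, 0.0778, 0.117 and 0.0667, and the 4 knock-in libraries are too few for a value of their own.

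The 3 libraries with high keratins did not follow that relation. This was fixed in advance, because the genes were chosen on their high values there. It says nothing about the source of the keratins, which was not tested. The mesothelial sums were 56.5, 47.9 and 51.1 TPM in knock-in 4, 5 and 6, inside the range of wild type, while Krt19 was at 614 to 1551 TPM.

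**Figure D5:**
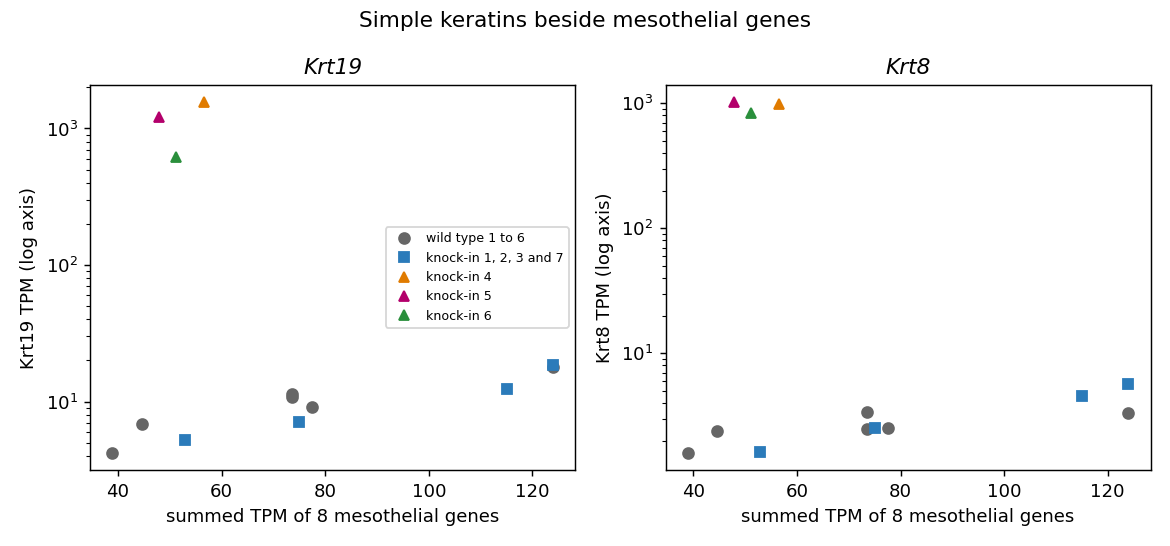
Krt19 and Krt8 in TPM on a log axis against the summed TPM of 8 mesothelial genes, 1 point per library. The other 10 libraries rise together from lower left to upper right, with r of 0.93 for Krt19 and 0.85 for Krt8. Knock-in 4, 5 and 6 lie far above them at sums of 47.9 to 56.5 TPM, as the choice of genes fixed in advance.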

How the data were processed

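Polyadenylated RNA of right ventricles was sequenced from stranded libraries, per the labels' protocols. DRAGEN and the build GRCm39 (mm39) appear in the submitters' processing notes. How strand was treated in counting, and with which annotation, is not given in the sources used here. The authors deposited estimated counts of reads, TPM and transcript lengths per gene and library, per the file headers. Lengths are another deposited value, in bases, and were used only to describe the TPM.

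The 39 members and all gene lists were chosen with earlier results of these data known. Groups come from the titles. Estimated counts were rounded to whole numbers, filtered with filterByExpr, scaled by TMM and tested with edgeR 4.0.16 (robust quasi-likelihood F test, R 4.3.3, no covariate), with Benjamini-Hochberg adjustment over all tested genes and a threshold of 0.05. The pipeline was tested on simulated data. A library was set apart where its share of values that are not whole (tolerance 1e-09) was over 2 times the median share. The condition of lying above all other libraries was judged on CPM scaled by TMM, and levels are printed in TPM as deposited.

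Values in each knock-in library, and the lowest, median and highest of wild type, are given for the 3 members of each role with the highest median TPM over knock-in 4, 5 and 6 and for each member called among the 10 libraries, and of each other list the 2 most abundant genes and genes at 0 may be named. Totals of 14498336 to 29848597 reads set the counting precision, and folds against 0 reads use a limit of 3 reads per library, which covers counting error only. Correlations used 100000 permutations, or all of them within wild type (scipy 1.17.1). Alternatives were DESeq2 (1.42.0) and its size factors, library totals, no filter, limma 3.58.1 on log2(TPM + 1), a replicate block, all 13 libraries and each library left out in turn. A GENCODE annotation of GRCm38 gave the genes with an exon overlapping a member's exon on the opposite strand by 50 or more bases, and 9 members had one. Promoter sequences are from RefSeq.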

Additional observations from a re-analysis of the deposited data

Results flagged for a closer look

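In 15 of 77 sets of values (a gene in wild type, in all 7 knock-in libraries or in knock-in 1, 2, 3 and 7), 1 library lay far from the others of its group. Of these, 11 were in the 7 knock-in libraries, and each was 1 of knock-in 4, 5 and 6, which chose the genes. The rule flags about 1 in 20 sets by chance only where a group is uniform. The 7 knock-in libraries were not, so nothing is read from the count.

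Knock-in 6 was far above its group for Krt5 (280 TPM, next 76.0), Cldn7 (303, next 121), Tjp3 (9.50, next 2.57), Dsc3 (1.23, next 0.429), Elf5 (74.7, next 0.827) and St14 (27.6, next 10.4). Knock-in 5 was far above for Krt15 (150 TPM, next 58.4), Dsg3 (0.840, next 0.0620) and Crabp2 (316, next 113). Knock-in 4 was far above for Foxa1 (60.4 TPM, next 24.7) and Muc1 (27.8, next 4.08).

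Among knock-in 1, 2, 3 and 7, knock-in 2 was low for Krt14 (0.148 TPM, next 0.855), knock-in 3 was high for Grhl2 (0.354, next 0.207) and knock-in 7 was high for Crabp2 (4.11, next 1.47). In wild type, library 1 was high for Ocln (1.20 TPM, next 0.871).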

How the results depend on the processing

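The count of 4 members higher in knock-in 1, 2, 3 and 7 was 7 with library totals, 10 with limma on log2(TPM + 1) and 15 with all 13 libraries, and 3 to 5 with each library left out. The 1 lower member, Grhl2, was 0 with all 13 libraries, where its log2 difference was 1.65, and 1 with each library left out. Over all genes, 3241 higher and 3099 lower became 6049 and 1528 with library totals and 7737 and 924 with limma, which also changes the unit and the model. Leaving out each library gave 2613 to 3392 higher and 2544 to 3347 lower.

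Correlations of deviations were 0.238, 0.128 and -0.0358 for replicate numbers 1, 2 and 3, which does not settle whether the numbers pair the samples. Only these numbers occur in both groups of the 10 libraries, so a replicate block rests on few libraries. With the replicate block, 1 member was called higher (Crabp2) and 1 lower, and 1385 and 1400 genes in all. Crabp2 kept its call in all 17 alternatives. That count includes the fit with all 13 libraries, which holds the libraries that chose the genes and is no support. Grhl1 (adjusted p = 0.143) and St14 (0.0621) lost their calls only with the replicate block, and Cldn3 (0.0573) also in the settings named above, all with the edgeR quasi-likelihood test.

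Directions of members that were not called turned in places. Krt7 (-0.00) was 0.28 with library totals, 0.20 with the block, 0.26 with limma, 5.25 with 13 libraries and -0.29 to 0.24 with each library left out (0.05, 0.13, 0.08, 0.24 and 0.10 without wild type 4, 5 and 6 and knock-in 2 and 3). Krt8 was -0.24 to 0.28 with each library left out, with -0.09 without wild type 2 or knock-in 1 and -0.24 without knock-in 7. Krt19 was 0.07 with limma and 5.39 with 13 libraries. Trp63 was 0.12 with library totals, 0.05 with the block, 0.19 with limma, 1.12 with 13 libraries and -0.28 to 0.09 with each library left out, the latter without knock-in 7. Spint2 was 0.14 with library totals and 0.27 with limma (adjusted p = 0.0480). Read numbers of 22 members were too low to test. The causes of these changes were not tested. The 35 genes above all other libraries were also 35 by TPM and by library totals, and 29 at 4-fold on CPM + 0.5.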
